A study of Homo sapiens with 6 samples.

Results

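The genes described here encode the SR proteins, their relatives TRA2A and TRA2B, and the heterogeneous nuclear ribonucleoproteins (hnRNPs), the main sequence-specific RNA-binding proteins that steer the choice of exons. Members were chosen by symbol: SRSF followed by a number, TRA2A or TRA2B, or a symbol beginning with HNRNP. Of the 61806 genes in the deposited table, 163 matched, 123 of them were dropped because their symbols end like those of pseudogenes, and 40 members were left: 12 SR genes, 2 TRA2 genes and 26 hnRNP genes. All 40 were matched by Ensembl identifier to GENCODE release 29, where all are annotated as protein coding.

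The samples were 6 poly(A)-selected RNA-seq libraries of HCT116, an established human colorectal carcinoma cell line. In 3 libraries the cells had received a control siRNA (si-NC, genotype given as wildtype), and in the other 3 an siRNA that targets STRIP2 (si-STRIP2, genotype given as STRIP2 knockdown). The comparison asks how the RNA of these genes differed between cells with lowered STRIP2, which encodes part of the STRIPAK complex of phosphatases and kinases, and control cells. The labels give no siRNA sequence, dose or time, and leave unsaid if replicate libraries are from different cultures, so p-values measure the spread between these libraries, which may be technical.

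SR proteins carry RNA recognition motifs and a tail rich in arginine and serine that is phosphorylated by the SRPK and CLK kinases. Bound to exons they mostly favour inclusion, whereas many hnRNPs bound to silencers favour skipping, and the balance between both classes sets the splicing of many transcripts. Many genes of both classes limit their own expression through alternative exons that send the transcript to nonsense-mediated decay (NMD), the pathway that degrades transcripts with premature stop codons.

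STRIP2 itself was at 3.19, 3.77 and 3.81 FPKM in si-NC libraries 1 to 3 and at 2.71, 2.53 and 2.58 FPKM in si-STRIP2 libraries 1 to 3. FPKM is the fragment count scaled by exonic length and library total. The groups did not overlap, and 72.6% of the control level remained (log2 fold change -0.46, SE 0.083, edgeR adjusted p = 1.62e-05). Libraries held 17184963 to 21721218 counts. Mitochondrial genes took 7.01% ± 2.01 of the counts of control libraries (SD, n = 3) and 6.00% ± 0.287 of those of si-STRIP2 (SD, n = 3; exact 2-sided permutation p = 0.5, where 3 against 3 cannot give less than 0.1). The colorectal epithelial markers EPCAM, CDH1, KRT8, KRT18, KRT19 and CLDN7 were all expressed, summing to 774 ± 16.6 FPKM in the controls (SD, n = 3) and 726 ± 12.4 FPKM with si-STRIP2 (SD, n = 3), with 1 of 6 called higher and 4 called lower. Of these, CDH1 (log2 -0.60, edgeR adjusted p = 1.57e-14) and CLDN7 (log2 -0.44, edgeR adjusted p = 2.77e-11) fell further than any member described below. Calls were common at such levels: among all tested genes with a mean of at least 10 FPKM, 38.0% were called higher and 34.3% lower. The 8 markers of fibroblasts, leukocytes and endothelium summed to 1.98 to 2.74 FPKM over the 6 libraries, most of it from COL1A1, and DCN was at 0. The part of these shifts in the results below was not tested.

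Most members that changed were higher in si-STRIP2. A call means an adjusted p under 0.05 in edgeR's quasi-likelihood test, adjusted over all genes tested. Of the 40 members, 34 had enough counts to be tested: 19 were called higher, 5 were called lower and 10 were not called. Over all 15687 genes tested, 54.8% were called, 27.8% higher and 27.0% lower, against 70.6%, 55.9% and 14.7% of the tested members. Among the 4146 tested genes with a mean of at least 10 FPKM, which takes in every tested member but SRSF4, 72.3% were called and 38.0% were called higher. The share of members called in either direction was therefore near that of genes of at least 10 FPKM, while the share called higher was above it. These genes were not matched to the members by level beyond that limit, and how often genes at the members' own levels were called was not tested. The median log2 fold change was 0.17 over the tested members, 0.01 over all genes tested and 0.02 over those of at least 10 FPKM. In bulk RNA, a change in the make-up of the cells and a change in RNA per cell cannot be told apart.

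**Figure D1:**
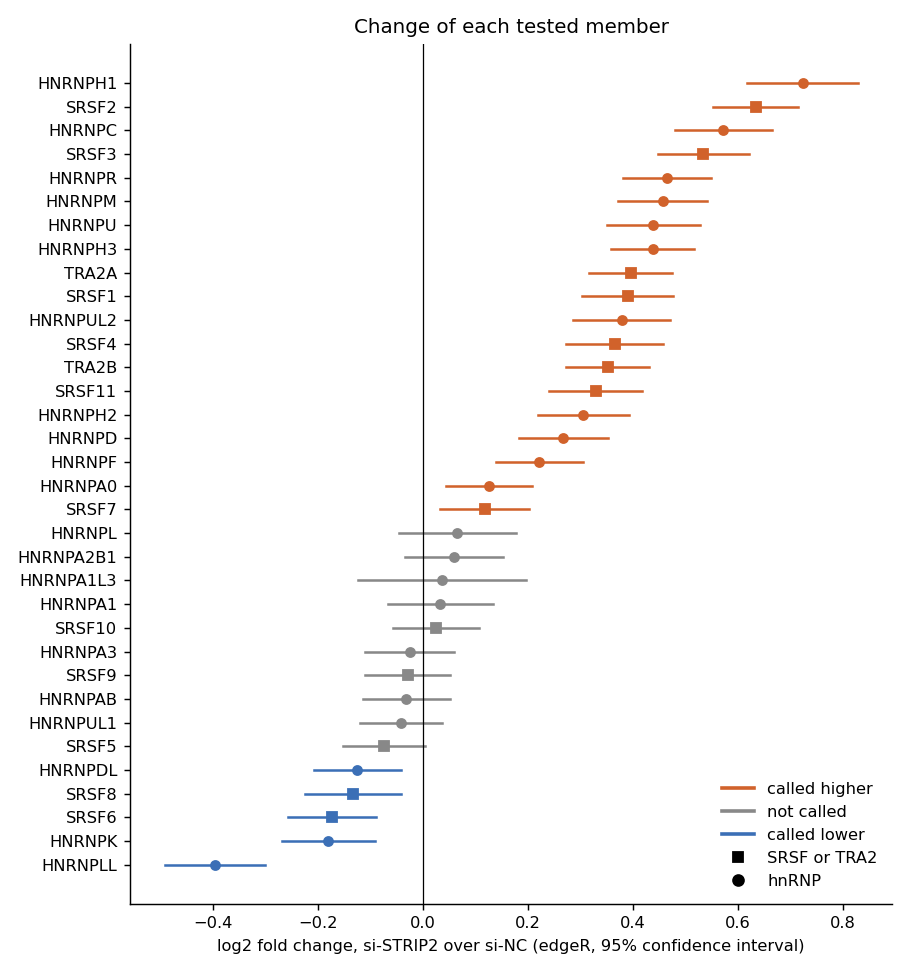
Log2 fold change of each of the 34 tested members, si-STRIP2 over si-NC, with the 95% confidence interval from edgeR; colour gives the call, squares are SRSF or TRA2 genes and circles are hnRNP genes. The 19 members called higher run from HNRNPH1 at 0.72 to SRSF7 at 0.12, and the 5 called lower from HNRNPDL at -0.13 to HNRNPLL at -0.40.

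The changes were mostly modest in size. A change of at least 1.2-fold was called for 17 members, 16 higher and 1 lower, where 38.9% of all genes tested met that limit, 19.4% higher and 19.5% lower. Of the genes of at least 10 FPKM, 20.9% were called higher and 19.0% lower by that much. At 1.5-fold or more, 2 members, HNRNPH1 and SRSF2, were called higher and 0 lower; 6.35% of all genes tested and 3.57% of those of at least 10 FPKM were called higher by that much, and with 2 members nothing is read from the comparison. In 27 of the 34 tested members no si-STRIP2 library fell within the FPKM range of the controls or the reverse, 20 higher and 7 lower in si-STRIP2, and such a split was seen in 58.6% of all genes tested. All 19 members called higher and all 5 called lower were among these 27. Of the 4146 tested genes of at least 10 FPKM, 1662 were split higher and 1455 lower, so such a split was common among these genes.

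**Figure D2:**
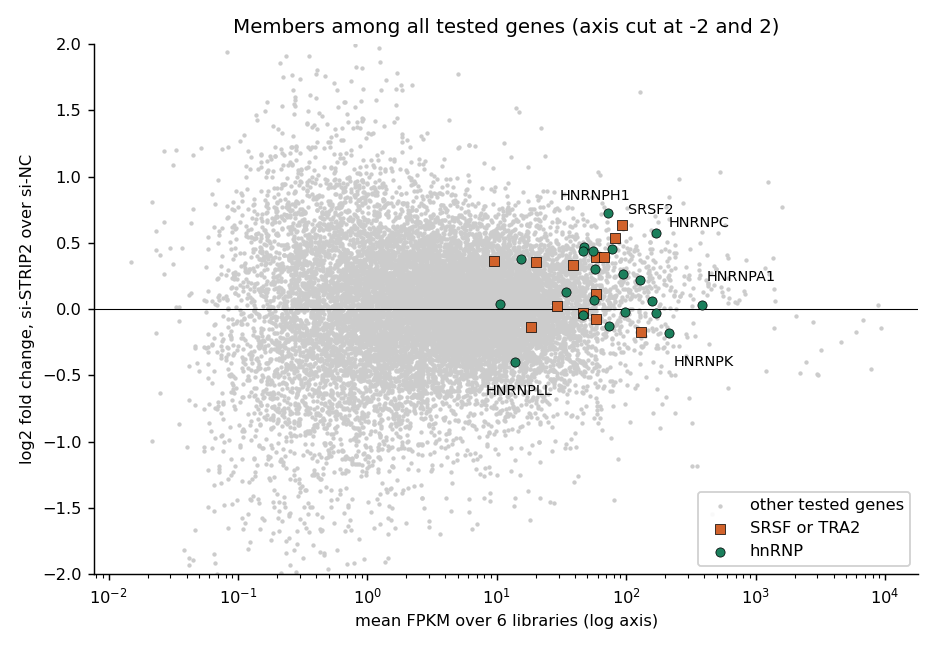
Log2 fold change (si-STRIP2 over si-NC) against mean FPKM over 6 libraries on a log axis, with the 34 tested members in colour and 15579 other tested genes in grey; 74 others lie beyond -2 or 2 and are not drawn. The members sit at the high end of expression, and all of them lie within -0.40 and 0.72.

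As a pool, members made up a larger part of the RNA in si-STRIP2. Their share of all counts was 1.63% ± 0.0262 in the controls (SD, n = 3) and 1.86% ± 0.0190 with si-STRIP2 (SD, n = 3). The summed level of the SR and TRA2 genes was 657, 663 and 656 FPKM in si-NC and 771, 762 and 761 FPKM in si-STRIP2, a mean 16.1% above control. For the hnRNP genes the sums were 1921, 1956 and 1867 FPKM in si-NC and 2124, 2147 and 2094 FPKM in si-STRIP2, 10.8% above control. For both classes every si-STRIP2 library lay above every si-NC library. Members called higher gained 356 FPKM in all and members called lower lost 53.1 FPKM. The largest single gain was that of HNRNPC, at 66.4 FPKM, followed by SRSF2 at 40.4 FPKM and HNRNPH1 at 35.9 FPKM.

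**Figure D3:**
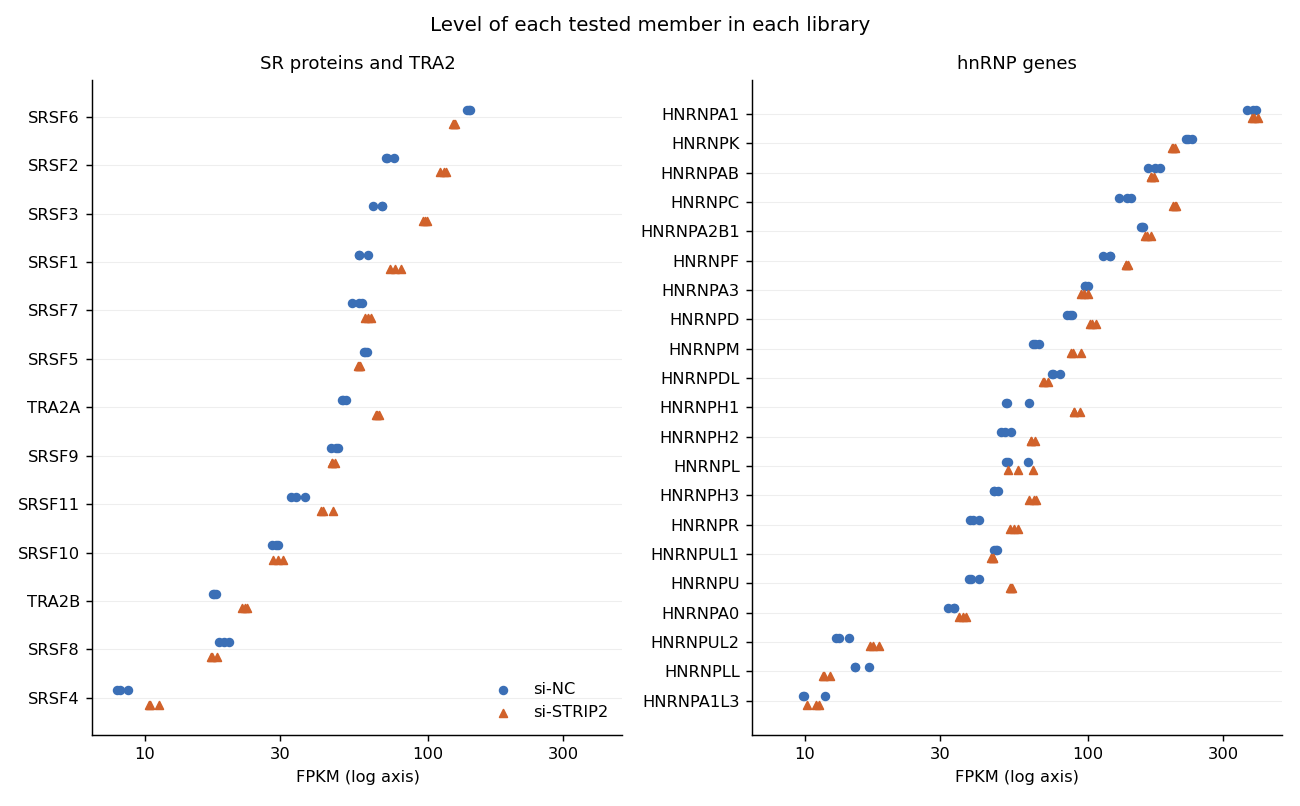
FPKM of each of the 34 tested members in each library on a log axis, blue circles for si-NC 1 to 3 and orange triangles for si-STRIP2 1 to 3, SR and TRA2 genes on the left and hnRNP genes on the right. SRSF2, SRSF3, HNRNPC and HNRNPH1 show the widest separation to the right, whereas HNRNPLL, HNRNPK and SRSF6 shift to the left.

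The bases upstream of the start sites of the members were searched for short promoter words. RefSeq promoter entries (GRCh38.p14) were matched by symbol for 30 of the 34 tested members, with none for SRSF2, TRA2A, HNRNPA1 and HNRNPA1L3. Shown here are the 2 risers and the 1 faller with the largest changes among the 8 tested members with a single entry and at least 150 bases upstream of every annotated exon. They are HNRNPC (chr14:21269495-21269692, minus strand), SRSF3 (chr6:36594112-36594352, plus strand) and SRSF6 (chr20:43457646-43457892, plus strand). Each reads 5′ to 3′ on the gene's strand and ends just before the first annotated exon. Capitals mark the letters of the CCAAT box, the GC box and the TATA box, on either strand and at any distance from the start.
HNRNPC: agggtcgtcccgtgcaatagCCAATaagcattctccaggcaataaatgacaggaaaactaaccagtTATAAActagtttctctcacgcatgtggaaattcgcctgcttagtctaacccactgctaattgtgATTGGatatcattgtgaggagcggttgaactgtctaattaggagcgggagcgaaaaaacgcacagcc
SRSF3: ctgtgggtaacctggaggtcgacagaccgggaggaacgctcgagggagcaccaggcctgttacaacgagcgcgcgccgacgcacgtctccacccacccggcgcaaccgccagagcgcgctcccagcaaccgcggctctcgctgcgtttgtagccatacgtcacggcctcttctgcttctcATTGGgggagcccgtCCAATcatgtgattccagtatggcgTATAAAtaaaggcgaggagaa
SRSF6: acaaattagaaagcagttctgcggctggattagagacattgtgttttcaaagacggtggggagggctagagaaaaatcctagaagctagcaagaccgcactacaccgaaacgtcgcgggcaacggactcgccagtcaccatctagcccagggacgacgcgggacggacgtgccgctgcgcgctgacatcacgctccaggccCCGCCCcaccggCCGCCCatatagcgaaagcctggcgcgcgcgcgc

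The stretches of HNRNPC and SRSF3 each hold 2 CCAAT words and 1 TATAAA word, and that of SRSF6 holds 2 GC boxes and neither of the others. Over the 250 bases before the RefSeq start, TATAAA was found, on either strand, in 5 of 30 members (16.7%) and in 5.44% of the 11074 tested genes with an entry. The 5 were SRSF3, SRSF11, HNRNPC, HNRNPD and HNRNPAB, 4 of the 17 members called higher that had an entry and 1 of the other 13. CCAAT was found in 15 of 30 members (50%) and 35.2% of the tested genes, in 9 of the 17 risers and 6 of the other 13. The GC box, GGGCGG, was found in 19 members (63.3%) and 67.3% of the genes, and the ETS-type word CCGGAAG in 5 members (16.7%) and 15.8% of the genes. The heat shock core GAANNTTC was found in 3 members (10%) and 4.03% of the genes. Of the E2F-type words, TTTCCCGC was in 3 members (10%) and 2.29% of the genes, and TTTCGCGC was in 0 members and 0.831% of the genes. The NRF1-type word GCATGCGC was in 1 member (3.33%) and 4.69% of the genes. All words were searched on both strands, and matches may share end letters; these are descriptions of the windows, with no test.

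Among the SR proteins, the 2 with the largest rises were SRSF2 and SRSF3. SRSF2 (ENSG00000161547, chromosome 17, 76734115 to 76737333, minus strand), the speckle protein also known as SC35, was at 71.5, 70.9 and 75.7 FPKM in si-NC and at 115, 114 and 110 FPKM in si-STRIP2. The libraries of each group lay close together and far from those of the other. The fold change was 1.55 (log2 0.63, SE 0.040, edgeR adjusted p = 3.31e-15). A second gene, MFSD11, shares exonic bases with SRSF2 on the opposite strand and had 10.3% as many counts. SRSF3 (ENSG00000112081, chromosome 6, 36594353 to 36605600, plus strand), the smallest SR protein, which also hands spliced mRNA to the export receptor NXF1, was at 68.8, 68.8 and 64.0 FPKM in si-NC and at 95.8, 99.1 and 97.6 FPKM in si-STRIP2. Again no library of one group came near the other, and the fold change was 1.45 (log2 0.53, SE 0.043, edgeR adjusted p = 1.05e-12).

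SRSF1, the founding SR protein and a known oncogene, was at 56.9, 56.9 and 61.4 FPKM in si-NC and at 80.2, 73.5 and 76.4 FPKM in si-STRIP2. Its lowest si-STRIP2 library stood well above its highest control, with a fold change of 1.31 (log2 0.39, SE 0.043, edgeR adjusted p = 1.63e-09). SRSF4, the least abundant SR gene tested, was at 7.94, 8.74 and 8.14 FPKM in si-NC and at 11.2, 10.4 and 10.4 FPKM in si-STRIP2. The groups were apart in spite of the low level, with a fold change of 1.29 (log2 0.37, SE 0.046, edgeR adjusted p = 2.46e-08). SRSF11, a more distant SR-type protein, was at 32.9, 34.0 and 36.6 FPKM in si-NC and at 46.1, 42.4 and 41.8 FPKM in si-STRIP2. Control library 3 was the highest of its group but remained below every si-STRIP2 library, and the fold change was 1.26 (log2 0.33, SE 0.044, edgeR adjusted p = 8.05e-08). The rise of SRSF7, which shares targets and the export role with SRSF3, was the smallest called: its FPKM went from 53.7 to 58.2 over the controls to 59.6 to 62.9 over si-STRIP2 (log2 0.12, SE 0.042, edgeR adjusted p = 0.0169). It was not called without control library 3 (adjusted p = 0.0739) or si-STRIP2 library 3 (adjusted p = 0.119).

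SRSF6 and SRSF8 went the other way. SRSF6 (ENSG00000124193, chromosome 20, 43457893 to 43466046, plus strand), the most abundant SR gene in these cells, was at 139, 140 and 137 FPKM in si-NC and at 122, 123 and 124 FPKM in si-STRIP2. The spread within each group was small beside the gap, and the level fell 1.13-fold (log2 -0.17, SE 0.041, edgeR adjusted p = 5.83e-04). SRSF8, a retrotransposed relative of SRSF2, had 18.3 to 19.9 FPKM in si-NC and 17.1 to 17.9 FPKM in si-STRIP2 (log2 -0.13, SE 0.045, edgeR adjusted p = 0.0125). That call was lost without control library 2 (adjusted p = 0.0538) or si-STRIP2 library 1 (adjusted p = 0.0761).

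For 3 SR genes no change was called. SRSF5, a serum- and insulin-responsive SR protein, was at 59.8, 60.9 and 59.3 FPKM in si-NC and at 57.0, 57.6 and 56.6 FPKM in si-STRIP2. All of its si-STRIP2 values were below all of its controls, but the difference was small (log2 -0.07, 95% confidence interval -0.15 to 0.003, edgeR adjusted p = 0.0987). SRSF9, a close relative of SRSF1, was at 47.4, 48.1 and 45.5 FPKM in si-NC and at 45.7, 47.0 and 45.8 FPKM in si-STRIP2. SRSF10, which becomes a splicing repressor when dephosphorylated, was at 28.1, 29.1 and 29.5 FPKM in si-NC and at 30.7, 28.4 and 29.4 FPKM in si-STRIP2. The groups of both overlapped, and the intervals ran from -0.11 to 0.05 for SRSF9 (edgeR adjusted p = 0.553) and from -0.06 to 0.11 for SRSF10 (edgeR adjusted p = 0.615). SRSF12 had 5 counts over the 6 libraries and was not tested.

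Both TRA2 genes, whose products bind purine-rich exonic enhancers, rose by like amounts. TRA2A was at 49.9, 51.3 and 49.5 FPKM in si-NC and at 66.9, 66.1 and 65.6 FPKM in si-STRIP2. TRA2B was at 17.8, 17.6 and 17.4 FPKM in si-NC and at 22.88, 22.01 and 22.60 FPKM in si-STRIP2. Replicates were tight and the groups far apart in both. The fold change was 1.32 for TRA2A (log2 0.40, SE 0.039, edgeR adjusted p = 1.35e-10) and 1.28 for TRA2B (log2 0.35, SE 0.039, edgeR adjusted p = 2.03e-09).

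Among the hnRNPs the F and H family, which binds runs of guanines, had all 4 of its genes called higher. Of all genes tested 27.8% were called higher, and of those of at least 10 FPKM 38.0%. Whether this family was called higher more often than others was not tested. HNRNPH1 (ENSG00000169045, chromosome 5, 179614178 to 179634784, minus strand) had the largest change of any member, from 51.5, 51.3 and 61.5 FPKM in si-NC to 93.7, 89.3 and 88.8 FPKM in si-STRIP2. Control library 3 stood above the other controls, yet every si-STRIP2 library was far above it. The fold change was 1.65 (log2 0.72, SE 0.052, edgeR adjusted p = 7.21e-14). HNRNPH3 was at 46.5, 48.0 and 46.6 FPKM in si-NC and at 65.4, 64.4 and 61.7 FPKM in si-STRIP2. HNRNPH2, the X-linked near copy of HNRNPH1, was at 53.5, 51.0 and 49.0 FPKM in si-NC and at 62.9, 65.0 and 62.5 FPKM in si-STRIP2. The groups of both were separate, with fold changes of 1.35 for HNRNPH3 (log2 0.44, SE 0.039, edgeR adjusted p = 1.36e-11) and 1.24 for HNRNPH2 (log2 0.31, SE 0.043, edgeR adjusted p = 2.22e-07). HNRNPF, the most abundant of the 4, had 112 to 120 FPKM in si-NC and 136 to 138 FPKM in si-STRIP2 (log2 0.22, SE 0.041, edgeR adjusted p = 1.99e-05). The summed level of the family was 270 ± 0.460 FPKM in the controls (SD, n = 3) and 355 ± 5.00 FPKM with si-STRIP2 (SD, n = 3).

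HNRNPC (ENSG00000092199, chromosome 14, 21209136 to 21269494, minus strand), which binds uridine tracts and keeps Alu-derived exons out of mRNA, was at 137, 141 and 128 FPKM in si-NC and at 204, 199 and 203 FPKM in si-STRIP2. No library of one group came near the other, and HNRNPC moved from rank 6 to rank 2 among the members by mean FPKM. The fold change was 1.49 (log2 0.57, SE 0.045, edgeR adjusted p = 8.65e-13). Its relatives HNRNPCL1, HNRNPCL2, HNRNPCL3 and HNRNPCL4, and HNRNPA1L2 of the A family, had 0 counts in every library. A floor of 3 counts per library, which covers counting error only, puts these 5 genes below 0.0728 to 0.154 FPKM.

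HNRNPR, a relative of SYNCRIP, was at 39.1, 41.1 and 38.4 FPKM in si-NC and at 53.1, 54.6 and 56.3 FPKM in si-STRIP2. HNRNPM, a splicing regulator linked to epithelial and mesenchymal isoform choice, was at 65.1, 67.1 and 63.9 FPKM in si-NC and at 88.3, 94.1 and 87.3 FPKM in si-STRIP2. In both genes the lowest si-STRIP2 library was well above the highest control. The fold changes were 1.38 for HNRNPR (log2 0.46, SE 0.042, edgeR adjusted p = 1.55e-11) and 1.37 for HNRNPM (log2 0.46, SE 0.042, edgeR adjusted p = 2.37e-11).

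In the U family, HNRNPU and HNRNPUL2 rose and HNRNPUL1 was not called. HNRNPU, also called scaffold attachment factor A, which binds both chromatin and nascent RNA, was at 38.0, 41.0 and 38.7 FPKM in si-NC and at 53.2, 53.6 and 53.0 FPKM in si-STRIP2. HNRNPUL2 was at 13.2, 14.3 and 12.9 FPKM in si-NC and at 18.2, 17.0 and 17.4 FPKM in si-STRIP2. The groups of both were apart, with fold changes of 1.36 for HNRNPU (log2 0.44, SE 0.043, edgeR adjusted p = 1.66e-10) and 1.30 for HNRNPUL2 (log2 0.38, SE 0.046, edgeR adjusted p = 1.17e-08). HNRNPUL1 was at 47.6, 47.2 and 46.6 FPKM in si-NC and at 46.1, 45.4 and 46.2 FPKM in si-STRIP2. Its groups just failed to overlap, and the interval of its change ran from -0.12 to 0.04 (edgeR adjusted p = 0.370).

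In the A and B family, which holds HNRNPA1, the most abundant member, 1 of the 6 tested genes was called; whether this family was called less often than others was not tested. HNRNPA1, the classical silencer-binding hnRNP, was at 390, 381 and 363 FPKM in si-NC and at 384, 398 and 380 FPKM in si-STRIP2. HNRNPA2B1, its close relative, was at 154, 157 and 155 FPKM in si-NC and at 162, 166 and 158 FPKM in si-STRIP2. The HNRNPA1 groups overlapped (log2 0.03, 95% interval -0.07 to 0.13, edgeR adjusted p = 0.584), whereas those of HNRNPA2B1 did not (log2 0.06, 95% interval -0.04 to 0.15, edgeR adjusted p = 0.286). HNRNPAB was at 172, 179 and 162 FPKM in si-NC and at 171, 166 and 167 FPKM in si-STRIP2. HNRNPA3 was at 97.7, 100.1 and 97.5 FPKM in si-NC and at 96.9, 99.8 and 94.0 FPKM in si-STRIP2. HNRNPA1L3, named as an HNRNPA1-like gene and liable to share its reads, was at 9.93, 11.8 and 9.83 FPKM in si-NC and at 11.21, 10.97 and 10.17 FPKM in si-STRIP2. In all 3 the groups overlapped, with intervals of -0.12 to 0.05 for HNRNPAB, -0.11 to 0.06 for HNRNPA3 and -0.12 to 0.20 for HNRNPA1L3 (edgeR adjusted p of 0.531, 0.622 and 0.718). HNRNPA0, an intronless gene whose product binds AU-rich mRNA ends, was the one called, at 31.9 to 33.6 FPKM in si-NC and 35.0 to 37.1 FPKM in si-STRIP2 (log2 0.13, SE 0.040, edgeR adjusted p = 0.00871). It was not called without si-STRIP2 library 2 (adjusted p = 0.0683). Under quantile scaling, an alternative added after seeing the data, HNRNPA2B1 was called higher, HNRNPA3 was called lower and HNRNPA1 turned to -0.08 and was called.

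As a family, the A and B genes summed to 846 ± 23.7 FPKM in the controls (SD, n = 3) and 861 ± 16.5 FPKM with si-STRIP2 (SD, n = 3). The 3 members highest in si-NC (HNRNPA1, HNRNPK and HNRNPAB) held 30.1% of the FPKM of all members in si-NC and 26.2% in si-STRIP2. The median of mean FPKM was 58.2 for members called higher, 73.4 for those called lower and 57.3 for those not called. Whether abundance goes with the calls was not tested.

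Of the remaining hnRNP genes, HNRNPK, HNRNPLL and HNRNPDL fell, HNRNPD rose and HNRNPL was not called. HNRNPK, a poly(C)-binding protein with KH domains and the second most abundant member in si-NC, was at 224, 232 and 221 FPKM in si-NC and at 200, 197 and 202 FPKM in si-STRIP2. Every si-STRIP2 library was below every control, a 1.13-fold fall (log2 -0.18, SE 0.043, edgeR adjusted p = 6.40e-04). HNRNPLL (ENSG00000143889, chromosome 2, 38561969 to 38603586, minus strand), known as the regulator of CD45 splicing in lymphocytes, was at 15, 16.8 and 14.98 FPKM in si-NC and at 11.7, 12.3 and 11.6 FPKM in si-STRIP2. Its fall of 1.32-fold was the largest among the members (log2 -0.40, SE 0.047, edgeR adjusted p = 8.26e-09), and the groups did not overlap. Its paralog HNRNPL, which binds CA-rich RNA, was at 52.2, 61.2 and 51.1 FPKM in si-NC and at 56.7, 63.6 and 52.1 FPKM in si-STRIP2. Library 2 of each group was the highest, the groups overlapped and the interval ran from -0.05 to 0.18 (edgeR adjusted p = 0.321). Without control library 2 HNRNPL was called higher (log2 0.14, edgeR adjusted p = 0.0179), and without si-STRIP2 library 2 its change was -0.01.

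HNRNPD, the AU-rich-element binding protein AUF1, rose from 84.1 to 87.6 FPKM over the controls to 102 to 106 FPKM over si-STRIP2 (log2 0.27, SE 0.042, edgeR adjusted p = 1.53e-06). HNRNPDL, its paralog 48061 bases away on chromosome 4, fell from 74.7 to 79.4 FPKM over the controls to 69.0 to 71.8 FPKM over si-STRIP2 (log2 -0.13, SE 0.041, edgeR adjusted p = 0.00930). The HNRNPDL call was lost without si-STRIP2 library 2 (adjusted p = 0.0619). On chromosome 2, HNRNPLL, which fell, and SRSF7, which rose, lie 140012 bases apart.

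These contrasts between relatives were compared directly as the ratio of their FPKM within each library, for 10 pairs of related members. The HNRNPD to HNRNPDL ratio was 1.15, 1.17 and 1.06 in si-NC and 1.44, 1.54 and 1.45 in si-STRIP2. The SRSF2 to SRSF8 ratio was 3.75, 3.57 and 4.14 in si-NC and 6.77, 6.33 and 6.38 in si-STRIP2, the widest shift of the 10 (log2 difference 0.77). For SRSF1 to SRSF9 it was 1.201, 1.182 and 1.348 against 1.75, 1.56 and 1.67. In each of these pairs the first gene gained on the second in every si-STRIP2 library relative to every control. The same held for SRSF4 to SRSF6 (log2 difference 0.54), HNRNPU to HNRNPUL1 (0.48), HNRNPL to HNRNPLL (0.46), HNRNPH1 to HNRNPH2 (0.42) and SRSF3 to SRSF7 (0.42). For these 8 pairs the exact 2-sided permutation p was 0.1, the smallest that 3 against 3 allows. After Benjamini-Hochberg adjustment over the 10 pairs it was 0.125, so the design cannot bring any of the 8 past 0.05. In each of the 8 the gene with the higher log2 fold change was written first, so their shared direction follows from that order. The ratios reuse the FPKM values given above, and how often other pairs of genes split this way was not tested. TRA2A to TRA2B (log2 difference 0.04, exact permutation p = 0.2, adjusted 0.222) and HNRNPA1 to HNRNPA2B1 (-0.03, exact permutation p = 0.7) overlapped between groups.

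**Figure D4:**
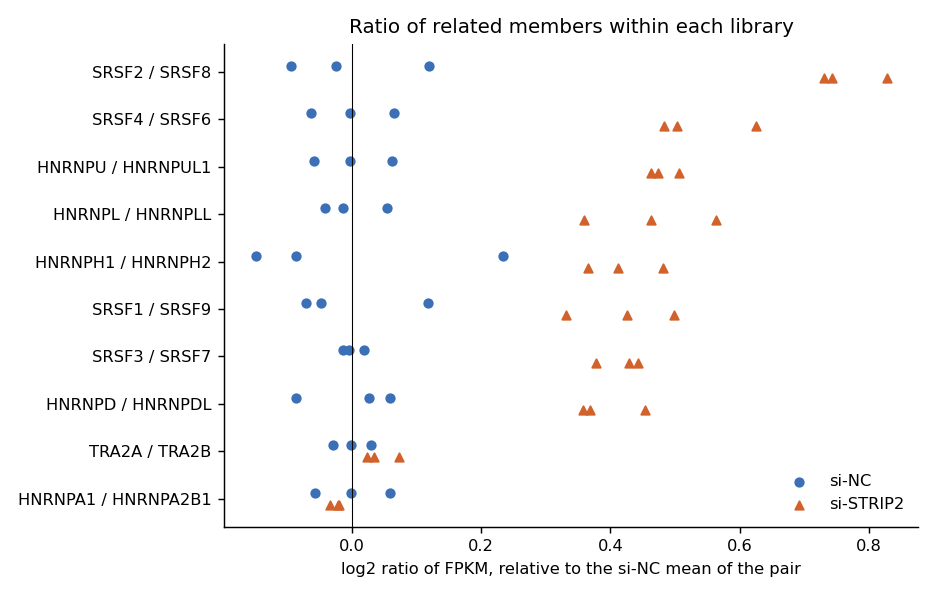
Log2 ratio of FPKM between related members in each library, relative to the si-NC mean of the pair; circles are si-NC 1 to 3 and triangles si-STRIP2 1 to 3. In 8 of 10 pairs all triangles lie to the right of all circles, while TRA2A to TRA2B and HNRNPA1 to HNRNPA2B1 overlap. In those 8 the gene with the higher log2 fold change is written first, which sets the direction.

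Gene-level counts do not separate isoforms, so coding transcripts and those marked for decay are added together in each value. In GENCODE 29, 26 of the 34 tested members (76.5%) have at least 1 transcript annotated for NMD, against 43.3% of the 12792 tested protein-coding genes that were matched. Of these 26 members 14 were called higher, 5 lower and 7 were not called, with a median log2 fold change of 0.19. Of the 8 members without such a transcript 5 were called higher, 0 lower and 3 were not called, with a median of 0.17. All 5 members called lower are among these 26, but so are 76.5% of all tested members, and nothing is read from the 5.

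Reads from pseudogenes and from overlapping genes could enter some values. HNRNPA1 has 74 pseudogenes in the table by symbol, which together held 4.27% as many counts as HNRNPA1 itself; the figure was 2.22% for HNRNPL, 1.98% for HNRNPA3 and 1.58% for HNRNPC. Adding these counts to the parent gene left 19 members called higher and 5 lower. Whether counting used strand is not given in the sources used here, and HNRNPA2B1, SRSF9, HNRNPUL1 and HNRNPH3 share exonic bases with CBX3, GATC, TGFB1 and RUFY2 on the opposite strand. Those neighbours had 27.6%, 16.7%, 8.51% and 7.17% as many counts as the member. On the same strand, ENSG00000266086 overlaps 56.6% of the exonic bases of SRSF1, and HNRNPUL2-BSCL2 overlaps 44.1% of those of HNRNPUL2. The counts of these same-strand neighbours were 0.150% and 0.787% of those of the member. How reads from shared bases were assigned was not examined.

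Around the members, 4 related sets of genes were described in the same way. Each set also holds genes with a mean below 10 FPKM, for example CLK4 (1.51 FPKM), RSRP1 (4.93), QKI (4.33) and SMG9 (4.24). The shares of genes of at least 10 FPKM given beside the sets are therefore not matched to them by level. Of 14 genes for the kinases that phosphorylate SR proteins and for the import and export of RNA-binding proteins and mRNA, 5 were called higher and 3 lower, with a median log2 fold change of 0.01. The 57.1% called was near the 54.8% of all genes tested and below the 72.3% of those of at least 10 FPKM. The nuclear kinases CLK2, CLK4 and CLK1, which phosphorylate SR proteins, parted: CLK2 was at 8.60, 8.65 and 9.77 FPKM in si-NC and at 13.4, 13.9 and 12.9 FPKM in si-STRIP2 (log2 0.57, SE 0.058, edgeR adjusted p = 3.15e-10). CLK4 was at 1.71, 1.66 and 1.84 FPKM in si-NC and at 1.36, 1.07 and 1.41 FPKM in si-STRIP2 (log2 -0.44, SE 0.10, edgeR adjusted p = 4.37e-04), and CLK1 had a log2 fold change of -0.23 (edgeR adjusted p = 0.00118). The groups did not overlap in any of the 3. PRPF4B, a spliceosomal kinase (log2 0.53), and NXF1, the mRNA export receptor to which SRSF3 and SRSF7 bind (log2 0.45), were also called higher, and the kinase DYRK1A lower (log2 -0.38), with edgeR adjusted p-values of 1.66e-12, 3.25e-09 and 9.40e-10.

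Of 30 SR-related proteins, which carry arginine and serine tracts without being classical SR proteins, 20 were called higher and 2 lower, with a median log2 fold change of 0.18. The 73.3% called in either direction was near the 72.3% of genes of at least 10 FPKM, of which 38.0% were called higher, against 66.7% of this set. RSRP1 was at 3.26, 2.97 and 3.68 FPKM in si-NC and at 6.84, 7.16 and 5.69 FPKM in si-STRIP2 (log2 0.99, SE 0.076, edgeR adjusted p = 4.45e-13). ACIN1, an accessory of the exon junction complex, had a log2 fold change of 0.82 (edgeR adjusted p = 2.98e-17), and LUC7L3, a relative of a yeast U1 snRNP subunit, one of 0.76 (edgeR adjusted p = 1.10e-14). For LUC7L3 control library 3 (31.6 FPKM) stood above controls 1 and 2 (25.9 and 26.5 FPKM), as it did for HNRNPH1, and all si-STRIP2 libraries were at 45.9 FPKM or more. The 2 called lower were SCAF8 (log2 -0.41, edgeR adjusted p = 1.53e-09) and PPIG (log2 -0.10, edgeR adjusted p = 0.0413). The PPIG call was lost without control library 1 (adjusted p = 0.0506) or 2 (0.155) and without si-STRIP2 library 1 (0.252) or 2 (0.0592), as well as under several other settings.

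Of 40 other tested regulators of splicing and relatives of hnRNPs, 21 were called higher and 9 lower, with a median of 0.11. The 75% called was near the 72.3% of genes of at least 10 FPKM. The share called higher was 52.5%, against 38.0% of those genes. TARDBP, the TDP-43 gene, was at 25.55, 25.66 and 26.04 FPKM in si-NC and at 39.0, 41.9 and 40.8 FPKM in si-STRIP2 (log2 0.65, SE 0.041, edgeR adjusted p = 2.67e-15). PTBP2 (log2 0.52) and TIA1 (log2 0.48) also rose, with edgeR adjusted p-values of 1.73e-06 and 5.92e-10. The genes of this set that fell most were QKI (log2 -0.61), PTBP3 (log2 -0.59) and RBFOX2 (log2 -0.46), with edgeR adjusted p-values of 1.37e-13, 5.44e-14 and 2.37e-11; PTBP3, a polypyrimidine-tract-binding protein, was at 54.5, 58.4 and 54.9 FPKM in si-NC and at 35.9, 37.6 and 38.3 FPKM in si-STRIP2. Their falls were larger than that of any SR, TRA2 or hnRNP gene.

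Of 15 genes of nonsense-mediated decay and the exon junction complex, 7 were called higher and 3 lower, with a median of 0.08. The 66.7% called lay between the 54.8% of all genes tested and the 72.3% of those of at least 10 FPKM. The share called higher was 46.7%, against 38.0% of genes of at least 10 FPKM. EIF4A3, the core helicase of the exon junction complex, was at 22.2, 23.6 and 22.5 FPKM in si-NC and at 35.7, 36.5 and 35.5 FPKM in si-STRIP2 (log2 0.66, SE 0.040, edgeR adjusted p = 1.28e-15). SMG9 (log2 0.46) and MAGOHB (log2 0.38) were called higher, while UPF3A (log2 -0.22) and SMG1 (log2 -0.12) were among those called lower. For SMG1, which has near-identical copies in the genome, the FPKM of the groups overlapped (edgeR adjusted p = 0.0351).

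**Figure D5:**
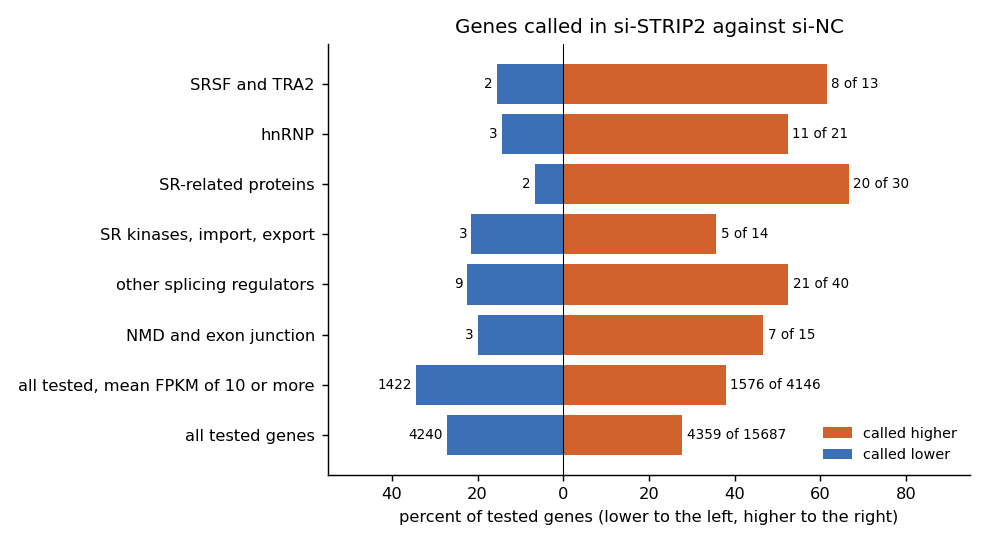
Percent of tested genes called higher (right, orange) and lower (left, blue) in si-STRIP2 for the members by class, for the 4 related sets, for tested genes with a mean of at least 10 FPKM and for all tested genes, with counts printed at the bars. The SR and TRA2 genes (8 of 13 higher, 2 lower), the hnRNP genes (11 of 21 higher, 3 lower) and the SR-related proteins (20 of 30 higher, 2 lower) lean to the right. So do the other splicing regulators (21 of 40 higher, 9 lower) and the NMD and exon junction genes (7 of 15 higher, 3 lower). The SR kinase, import and export set had 5 of 14 higher and 3 lower, and all tested genes are close to even.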

How the data were processed

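Per the labels' protocols, TRIzol-extracted RNA was poly(A)-selected and made into directional libraries. The submitters' processing notes name bcl2fastq 2.20.0.422, FastQC 0.10.1, cutadapt 1.9.1, HISAT2 2.2.1, HTSeq 0.6.1 and GRCh38.p13, without their roles; the annotation release, and whether counting was stranded, are not given in the sources used here. Per the file headers, the authors deposited 1 table with raw counts and FPKM values per gene and library. The deposited FPKM values matched a recomputation from the counts, exonic sizes and column totals to within 0.005.

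Counts were tested in R 4.3.3 with edgeR 4.0.16: genes kept by filterByExpr (minimum count 10; 15687 genes with 99.8% of counts), TMM scaling, a quasi-likelihood fit with group as the only term, and Benjamini-Hochberg adjustment over all genes tested, with a threshold of 0.05. The biological coefficient of variation was 0.0388. The number of libraries, 3 in each group, limits the precision of every value. FPKM served for levels, sums and ratios. Chi-square per degree of freedom between libraries was 4.91 to 16.6 among the controls, highest between controls 2 and 3, and 2.14 to 2.26 among the si-STRIP2 libraries. A value near 1 is sampling noise, so no library was counted as a second sequencing of another. Such values cannot tell separate cultures from separate preparations of the same culture. The procedure was run on simulated counts in which few genes changed, with the spread taken from these libraries. That run does not cover data in which 54.8% of genes are called, or replicates that are technical.

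Values in every library were given for called members with an absolute log2 fold change of at least 0.3, for tested members not called and for the 3 most abundant members. From each related set, the 3 called genes with the largest change in each direction and a mean of at least 1 FPKM were named. A gene that this rule selects is not reported here. Alternatives were DESeq2 1.42.0, limma 3.58.1 (voom, and log2 of FPKM plus 1 or 0.1), other scalings and filters, a replicate block, leaving out each library, and adding pseudogene counts. The members, the related sets and the tests were chosen with earlier results of these data known.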

Additional observations from a re-analysis of the deposited data

How the results depend on the processing

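Of the 19 members called higher, 17 kept their call and direction under all 18 alternatives, as did 3 of the 5 called lower; the exceptions, HNRNPA0, SRSF7, HNRNPDL and SRSF8, each lost the call when 1 library was left out. The count called higher was 18 to 20 and the count called lower 4 to 6 without 1 library; apart from the fold limits, no other alternative moved them outside 19 to 20 and 5 to 7. With a fold limit of 1.2 the count called lower was 1; with 1.5 it was 2 higher and 0 lower. Among members not called, signs reversed for HNRNPL without si-STRIP2 library 2 (-0.014), for HNRNPA1L3 without si-NC library 1 (-0.0026) or 3 (-0.0074), and under quantile scaling, chosen after seeing the data, for HNRNPA1 (-0.076) and SRSF9 (0.023). Without 1 library HNRNPL ranged from -0.014 to 0.141 and HNRNPA1L3 from -0.0074 to 0.113. The cause was not tested. SRSF5 was called lower with DESeq2 (adjusted p = 0.0499), with the filter at a mean of 1 FPKM (0.0291) and without si-NC library 3 (0.0468). Of the SR-related proteins, PPIG lost its call, so that the count called lower was 1 instead of 2, with library totals only, limma at either pseudocount, no filter, quantile scaling or the replicate block, and 1 to 2 without 1 library.

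The labels number the libraries 1 to 3 in each group without saying whether equal numbers mark a pair. Deviations of same-numbered libraries did not go together over all genes tested (correlations -0.0858, -0.0133 and -0.0718). Such correlations cannot settle whether same-numbered libraries were handled together. With the number as a replicate block, 19 members were called higher and 5 lower, and 8293 genes were called over the whole table in place of 8599. STRIP2 was called lower under every alternative (-0.54 to -0.35). Calls over all genes ranged from 7238 (DESeq2) to 8604 (upper-quartile factors), and the median of all genes from 0.0069 to 0.046.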
